A study of Mus musculus with 3 samples.

Results

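DNA methylation writers and erasers are the proteins that place, copy and remove methyl groups on cytosine. Their RNA 3′ ends were described here for 9 genes: Dnmt1, Uhrf1, Dnmt3a, Dnmt3b, Dnmt3l, Tet1, Tet2, Tet3 and Tdg. The genes were chosen by name, and their sites were all listed poly(A) sites on the gene's strand from the gene start to 1000 bases past the gene end in GENCODE M21 (mm10). This gave 135 of the 178115 listed sites and 9 of the 21653 genes with a listed site. All 9 genes lie on autosomes.

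The sites come from PAS-seq, a QuantSeq assay that sequences the 3′ ends of polyadenylated RNA, in F121-9 cells. F121-9 is a mouse embryonic stem (ES) cell line, a hybrid of the Cast and 129 strains. There was 1 group of 3 libraries, labelled as biological replicates 1, 2 and 3, all at passage 14 and all from 500 ng of RNA, with no treatment or genotype contrast. It is 1 line, its values were not split here by parental genome, and no separate cultures are named, so differences among the libraries may partly come from their preparation.

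Methylation is copied onto the new DNA strand after replication by DNMT1, which UHRF1 recruits by binding hemimethylated sites. DNMT3A and DNMT3B place methylation anew, and DNMT3L, which has no catalytic activity of its own, stimulates them. TET1, TET2 and TET3 oxidise methylcytosine, and the glycosylase TDG cuts out the further oxidised bases so that base excision repair can restore an unmodified cytosine. ES cells are known for expressing both arms of this cycle at once. The 3′ end of a messenger RNA is made by cleavage downstream of a signal, most often AATAAA, and the choice of site sets how much 3′ untranslated region (3′UTR) a transcript carries.

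The sequences of the main sites show which signal hexamer, if any, lay before each site in the reference genome. Whether it was used was not tested. Each line gives the last 30 bases up to the site, 5′ to 3′ on the transcribed strand in mm10, with the signal hexamer in capitals. In genes read mainly at 1 site, that site lay in the 3′UTR of the last exon, which for Tet3 was that of a longer annotated transcript than the principal one used here:
Dnmt1 (chr9:20907210-20907239, minus strand): tttcttcaaAATAAAgcgcttctgtcaagc
Uhrf1 (chr17:56323456-56323485, plus strand): tattgcAATAAAATAAAattctggccgggc
Dnmt3b (chr2:153687699-153687728, plus strand): ttctggttgATTAAAgttgtatttctctat
Dnmt3l (chr10:78063592-78063621, plus strand): tttcaAATATAtcataggattgttactggt
Tet2 (chr3:133463683-133463712, minus strand): tttttAATAAAatttatatttatttaatgc
Tet3 (chr6:83362376-83362405, minus strand): tAATAAAttttatatttattttttgcactc

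Dnmt3a and Tet1 are shown apart because their reads were spread over 5 sites that each held 5% or more of their reads. All 5 sites of Dnmt3a lay in its 3′UTR, and 4 of them are listed from the stop codon outwards. The site not shown lay at 807 bases, had TATAAA and held a mean of 13.5% of the reads. The one at 5633 bases has no hexamer in the 40 bases searched, while the deposited list gives ATTAAA for it:
Dnmt3a, 458 bases past the stop codon (chr12:3908176-3908205, plus strand): agggaaaattcTATAAAaacttaaaatatt
Dnmt3a, 1249 bases past it (chr12:3908967-3908996, plus strand): ctggagcaAATAAAaaaacatacaaaatgt
Dnmt3a, 5633 bases past it (chr12:3913351-3913380, plus strand): gtagagagtccgtcagttccgcttcatcac
Dnmt3a, 6694 bases past it (chr12:3914412-3914441, plus strand): cttcAATAAAcatctttatgttttggcttc

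For Tet1 the sites are listed in the direction of transcription, and the first 3 lay in coding sequence:
Tet1, exon 2 (chr10:62879854-62879883, minus strand): ccccggaaaaccgaagcaattaATTAAAag
Tet1, exon 4 (chr10:62839012-62839041, minus strand): aACTAAAcccagtgtaccatcagcaaagcc
Tet1, last exon, coding (chr10:62812707-62812736, minus strand): tgatatcAACAAAattaagtgtaaatgcaa
Tet1, 268 bases past the stop codon (chr10:62812264-62812293, minus strand): aaAATAAActttttatagttttaaatactt
Tet1, 7960 bases past it (chr10:62804572-62804601, minus strand): gtataaAATAAAttttatacttctattttg

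Of the 8 genes other than Tdg, 6 had AATAAA before their most read terminal exon site: Dnmt1, Uhrf1, Dnmt3a, Tet1, Tet2 and Tet3. Dnmt3b had the variant ATTAAA, and Dnmt3l had AATATA with neither AATAAA nor ATTAAA in the 40 bases searched. Among the most read terminal exon sites of 10340 autosomal genes, 63.5% had AATAAA, 15.8% had ATTAAA without AATAAA, 14.6% had only another of 18 signal hexamers and 6.10% had none. Weighted by reads, AATAAA stood before 80.0% ± 0.659 (SD, n = 3) of the reads of all member sites, against 63.0% ± 0.727 at all autosomal terminal exon sites. That share was led by Uhrf1, which held most of the reads. Counted by site, 18 of the 135 member sites (13.3%) had AATAAA, against 26.6% of autosomal terminal exon sites, and the member sites also included 47 in introns and 19 in other exons.

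The libraries held 10147672 reads at listed sites in replicate 1, 13513327 in replicate 2 and 13040620 in replicate 3. Reads on the X, Y and mitochondrial chromosomes were missing from replicate 3, so comparisons over 3 libraries used the autosomes. All 8 naive ES markers measured (such as Nanog and Esrrb) and all 4 core ES markers (such as Sox2) lay above 10 RPM in the mean, where RPM is reads scaled to 1000000 reads of the library. Of 9 fibroblast markers, which would show feeder cells, 3 did so (Fn1, Thy1 and Vim), while Postn and Dcn had no listed site. Medians were 442 RPM for the naive markers and at most 10.7 RPM for each of the formative, fibroblast, endoderm, mesoderm, neuroectoderm, trophoblast and germ cell lists. Single markers of these lists were higher. Of 5 formative markers 3 lay above 10 RPM, as did 2 of 4 germ cell markers, with Dazl at 150 RPM. The endoderm, mesoderm, neuroectoderm and trophoblast lists had 1 such marker each. In bulk libraries fewer cells of a type and less RNA per cell cannot be told apart. RPM was scaled to all reads of a library, 11085428, 14855484 and 14064461 in replicates 1, 2 and 3. Of these, 9326090, 12500338 and 13040404 lay at autosomal sites, a larger part in replicate 3. Autosomal RPM values of replicate 3 are therefore raised beside those of the other libraries. With levels scaled to autosomal reads, the order of the members by mean was the same.

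**Figure D1:**
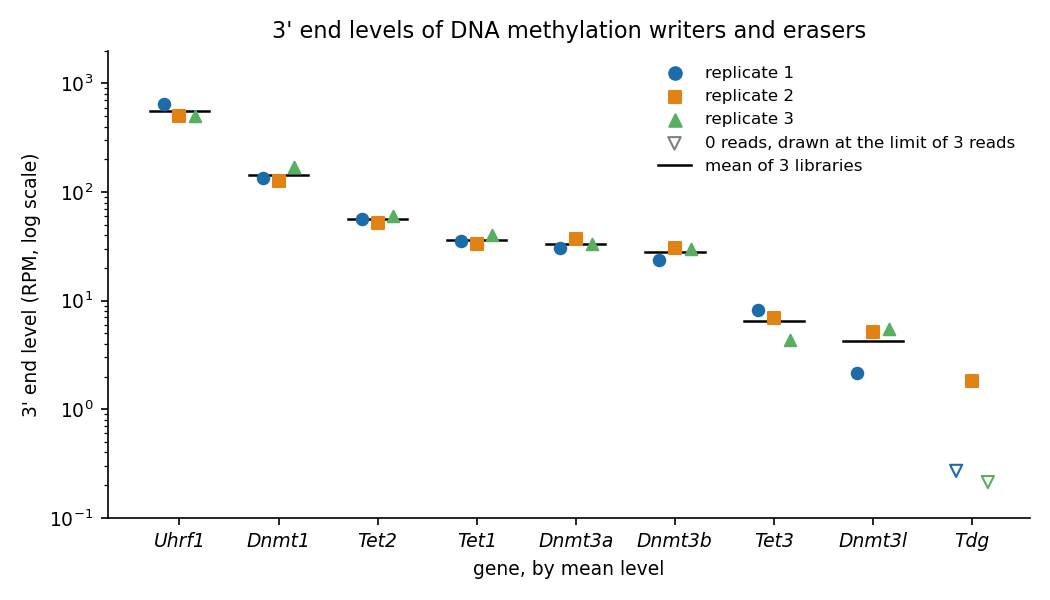
Level of each gene in RPM (log axis), summed over exonic sites and sites up to 1000 bases downstream; symbols are the 3 libraries and black lines are means. Uhrf1 lies highest at 501 to 651 RPM, and Tdg was read in replicate 2 alone, with the other libraries drawn at their limit of 3 reads.

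Levels ran from 552 RPM in the mean for Uhrf1 down to the detection limit for Tdg. A transcript gives 1 read at its 3′ end, so levels were not divided by length. Uhrf1, which brings DNMT1 to newly replicated DNA, was read at 651, 501 and 505 RPM in replicates 1, 2 and 3 (mean 552 ± 85.6, SD). It lay above all other members in every library, and 98.6% of the 12272 autosomal genes with at least 1 RPM were at or below its mean. Dnmt1, the maintenance methyltransferase, followed with 134, 128 and 168 RPM (mean 143 ± 22.0, at or above 91.3% of genes). The log2 difference of Uhrf1 over Dnmt1 was 2.28, 1.97 and 1.59 in the 3 libraries, so the direction was the same in all of them.

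The de novo methyltransferases were read at about the middle of the range of the 9 genes. Dnmt3a had 30.3, 37.1 and 33.1 RPM and Dnmt3b had 23.5, 30.8 and 30.1 RPM. Dnmt3a was the higher of both in each library, by 0.37, 0.27 and 0.14 on the log2 scale, but their ranges over libraries overlapped. Dnmt3l, their stimulating cofactor, had 2.17, 5.12 and 5.47 RPM, from 24, 76 and 77 reads. In RPM, which is raised in replicate 3, replicate 1 was thus the low library for Dnmt3l and also for both methyltransferases.

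The Tet dioxygenases differed widely in level. Tet2 had 56.6, 52.0 and 60.1 RPM (mean 56.2 ± 4.07), Tet1 had 35.7, 32.9 and 40.1 RPM (mean 36.2 ± 3.62) and Tet3 had 8.12, 6.93 and 4.34 RPM (mean 6.46 ± 1.93). The 3 ranges did not overlap, and Tet2 exceeded Tet1 by 0.66, 0.66 and 0.58 on the log2 scale. The position of Tet1 depended on which sites were counted, because many of its reads lay outside the last exon. With terminal exon sites only, its mean was 17.8 RPM, which placed it below both Dnmt3a and Dnmt3b.

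Ordered by mean level, the genes ran Uhrf1, Dnmt1, Tet2, Tet1, Dnmt3a, Dnmt3b, Tet3, Dnmt3l and Tdg. Of the 8 neighbouring pairs, 3 had overlapping ranges: Tet1 and Dnmt3a, Dnmt3a and Dnmt3b, and Tet3 and Dnmt3l. Compared within each library, the first and the last of these changed direction between libraries, while Dnmt3a exceeded Dnmt3b in 3 of 3 (log2 difference 0.26 ± 0.12, SD). An exact two-sided sign-flip test over 3 libraries cannot go below p = 0.25, so none of the 8 pairs could pass a threshold of 0.05. In this exact test 6 pairs reached that smallest value (0.333 after Benjamini-Hochberg adjustment over the 8 pairs), and Tet1 against Dnmt3a and Tet3 against Dnmt3l had p = 0.5. The coefficient of variation over libraries had a median of 15.3% for all the members, Tdg at under 1 RPM included. For the autosomal genes with at least 1 RPM it was 25.4%.

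Tdg, the glycosylase of the removal step, had no read in replicates 1 and 3. A count of 0 there allows up to 0.271 and 0.213 RPM (3 reads, counting error only). Replicate 2 had 1.82 RPM in exons, of which 1.68 RPM lay at 1 site (chr10, position 82641085, the last exon of another annotated Tdg transcript) and 0.135 RPM at the annotated gene end. A further 0.539 RPM lay in an intron. The presence of Tdg reads therefore rested on replicate 2 alone.

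Near-identical copies limit what the Tdg value can show. In a search of the genome with its 3502-base transcript, 86.4% of the transcript was also found elsewhere, in 5 alignments of at least 95% identity. The copy on chromosome 10 (42052554 to 42055356, annotated as the processed pseudogene Gm9855) matched at 99.3% and held 1.89, 0.673 and 0.711 RPM at listed sites. The copies on chromosomes 15, 19 and 7 held no listed site. Of the alignments, 3 ended at the same transcript base, 518 bases before the annotated end of Tdg, and an ATTAAA lies just upstream of that point:
Tdg, at the shared end of the copies (chr10:82650252-82650281, plus strand): gttctcATTAAAtaatactgagattttaaa
No listed site lay within 50 bases of it in Tdg. The 100 bases before it occur at 4 other places, 1 of them without a mismatch and 3 with 1 mismatch. How the authors treated reads that map to several places is not given in the sources used here. A low RNA level and reads that could not be placed therefore cannot be told apart for Tdg.

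**Figure D2:**
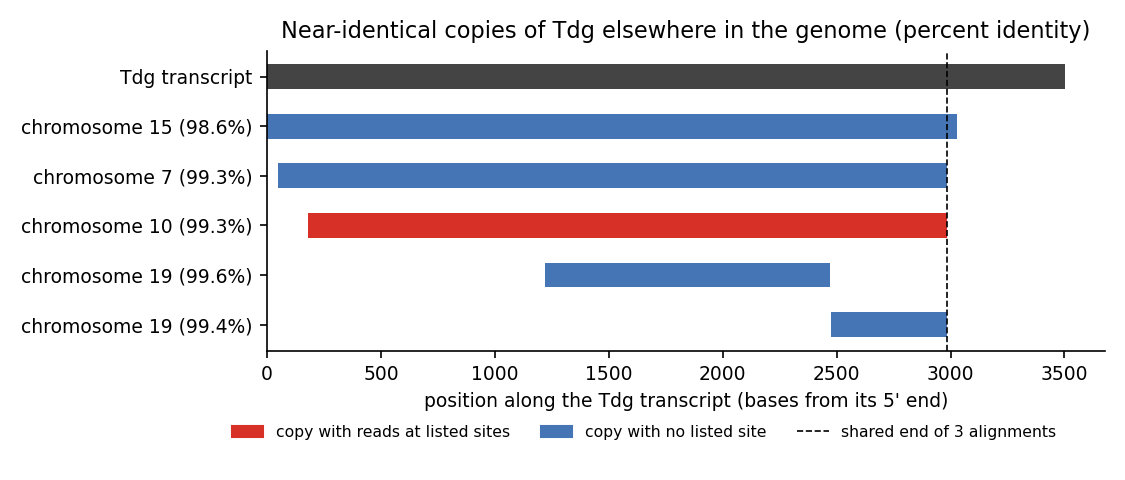
Parts of the Tdg transcript found elsewhere in the mm10 genome at 95% identity or more; the horizontal axis is the position along the transcript in bases, and each bar is 1 alignment with its percent identity. The dashed line marks the end that 3 of the 5 alignments share, the copy on chromosome 15 runs past it, and the copy on chromosome 10 was the one with reads.

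Uhrf1 also has a copy, the processed pseudogene Gm5648 on the X chromosome, which matches 71.9% of its transcript at 97.7% identity. The last 300 bases before the Uhrf1 site matched it at 99.0%, and the copy held 0.0902 and 0.135 RPM in replicates 1 and 2. The treatment of reads that map to both places is not given, and its effect on the Uhrf1 level was not tested. Replicate 3 has no X reads. No copy of the last 300 bases was found for Dnmt1, Dnmt3a, Dnmt3b, Dnmt3l, Tet1, Tet2 or Tet3. None was found for the 300 bases before the annotated end of Tdg either, so the copies concern its upstream part.

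Most members ended their transcripts at 1 main place. Dnmt1 had 96.7% ± 1.39 of its reads at 1 site, 311 bases past the stop codon, and Dnmt3b had 98.4% ± 1.43 at 1 site 1329 bases past it. All reads of Dnmt3l fell on its single listed site, 272 bases past the stop codon. Tet3 had 93.7% ± 6.24 at a site 5666 bases past the stop codon, near the annotated gene end. For these 4 genes the main site was the same in every library. Uhrf1 and Tet2 had a main site with 85.1% ± 0.752 and 80.6% ± 2.56 of the reads and a weaker one upstream with 9.93% ± 0.684 and 9.37% ± 1.73.

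The weaker sites of Uhrf1 and Tet2 had no signal hexamer in the 40 bases upstream, although the deposited list gives ACTAAA for the Tet2 site:
Uhrf1, upstream site (chr17:56323407-56323436, plus strand): ttgtgttttgttttgtgtggggtatttttt
Tet2, upstream site (chr3:133464372-133464401, minus strand): aatgtctgccttgcacacacacacacacac
The Uhrf1 site lay 49 bases before the main one. The Tet2 site lay 689 bases before the main one, ended in a CA repeat and was followed by A-rich sequence (13 A in the next 20 bases). A-rich sequence downstream is where the oligo(dT) primer can bind inside a transcript, and its part in these reads was not tested.

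**Figure D3:**
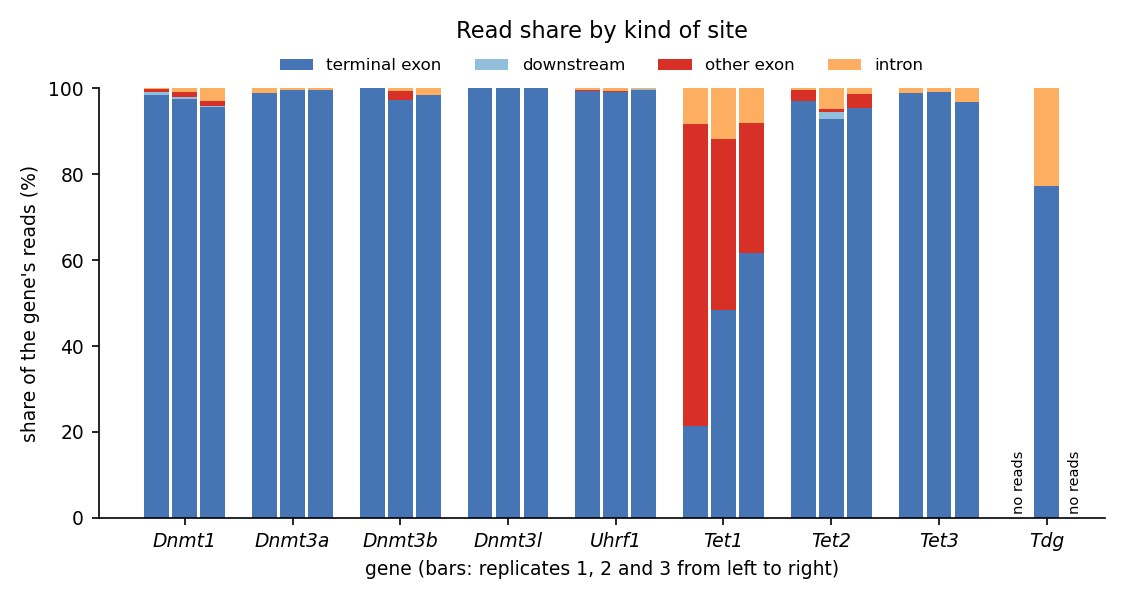
Share of each gene's reads (percent) in the terminal exon, other exons, introns and the downstream 1000 bases; the 3 bars of a gene are replicates 1, 2 and 3. Tet1 stands apart with 21.3% to 61.7% of reads in terminal exons, while the 7 other genes read in every library had over 92% there.

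Read by kind of site, Tet1 was the exception among the members. In Dnmt1, Dnmt3a, Dnmt3b, Dnmt3l, Uhrf1, Tet2 and Tet3 the terminal exon held a mean of 95.1% to 100% of the reads. In Tet1 it held 21.3%, 48.5% and 61.7% (43.8% ± 20.6), and exons other than terminal ones held 70.4%, 39.6% and 30.1% (46.7% ± 21.03). Replicate 1 was the lowest for the terminal exons and the highest for the non-terminal ones. Of 11343 protein-coding autosomal genes with at least 50 reads and reads in every library, 0.802% had as large a mean share in such exons, and the median gene had 0%. The intronic share of Tet1 was 9.46% ± 2.11, and 18.4% of these genes had as much. The intronic shares of the 7 other genes ran from 0% for Dnmt3l to 2.18% ± 2.34 for Tet2, around the median of 0.680% for all these genes. The terminal exon share of Tet1 includes a few sites in exons 2 and 4, where other annotated transcripts end. In exon 2, position 62879985 had 0, 7 and 0 reads. In exon 4, position 62839099 had 0, 4 and 1 reads and position 62839217 had 0, 0 and 11.

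The Tet1 reads outside the last exon came mainly from coding exons 2 and 4 of 13. The exon 2 site had 15.5, 9.29 and 3.84 RPM and held 24.5% ± 15.5 of the reads of the gene. It was the most read site in replicates 1 and 2, while in replicate 3 the site 268 bases past the stop codon was, with 7.61 RPM. The exon 4 site had 9.83, 4.04 and 5.97 RPM. Both were highest in replicate 1. In RPM, the exons other than terminal ones held 27.4, 14.8 and 13.2 and the terminal exon held 8.30, 18.1 and 26.9, so the sum moved less between libraries than its parts.

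The sequence after these sites is rich in A. Each had 11 A in the next 20 bases, 1 fewer than the 12 that defined an A-rich site here, with a longest run, in capitals, of 3 and 5:
Tet1, 20 bases after the exon 2 site (chr10:62879834-62879853, minus strand): aagagatggtaagaaggAAA
Tet1, 20 bases after the exon 4 site (chr10:62838992-62839011, minus strand): aaagaaggcccagAAAAAgg
At the exon 2 site the ATTAAA begins 8 bases before the end. At the AATAAA sites of Dnmt1, Dnmt3a, Tet1, Tet2, Tet3 and Uhrf1 shown above the hexamer begins 21 to 29 bases before it. For Uhrf1 this is the first of an overlapping pair. Of all autosomal sites in non-terminal exons, 31.7% had 11 or more A in the next 20 bases, against 8.78% of those in terminal exons. With sites of 10 or more A left out, an alternative chosen after the sites were seen, the share of Tet1 reads in non-terminal exons was 13.5% and its level was 15.4 RPM. With the A-rich sites left out, which keeps both of these sites, that share was 52.6%. The part of priming inside the transcript in these reads was not tested.

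**Figure D4:**
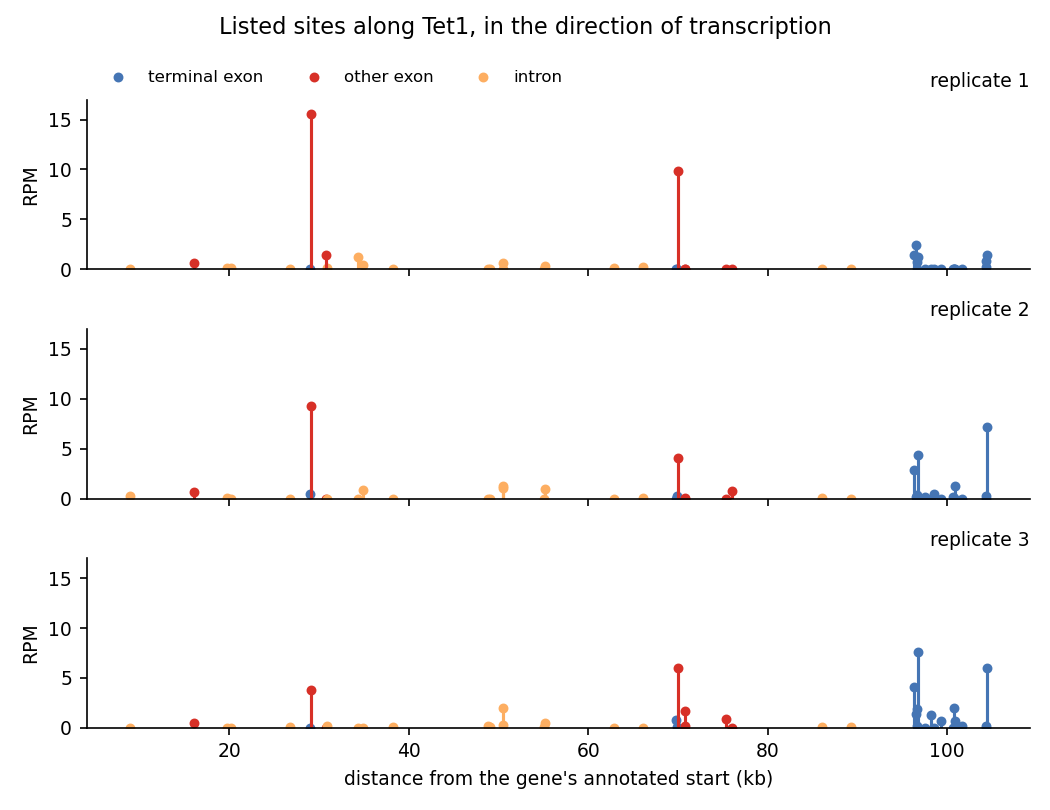
RPM at each listed site of Tet1 against the distance from the annotated gene start in kb, with 1 panel per library and colours for the kind of site. The exon 2 and exon 4 sites fall near 30 and 70 kb and are tallest in replicate 1, while the last exon, beyond 95 kb, is read more in replicates 2 and 3.

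Inside the last exon of Tet1, reads fell close to the stop codon and far from it. Sites up to 300 bases past the stop codon held 4.42, 4.98 and 11.02 RPM, and those from 7500 to 8000 bases past it held 2.44, 7.47 and 6.26 RPM. Both ranges were set after the sites were seen. The near group includes an A-rich site at 157 bases, with 0.722, 0.0673 and 1.92 RPM. Neither group was the higher one in all 3 libraries.

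Dnmt3a ended its transcripts in 2 regions of a long last exon. Sites up to 1500 bases past the stop codon held 72.1%, 75.4% and 72.6% of its reads (73.4% ± 1.79), and those from 5000 to 7000 bases past it held 26.8%, 23.9% and 24.1% (24.9% ± 1.60). These ranges were set after the sites were seen, and the shares are a description. The near region was the higher one in every library. Its main site, 1249 bases past the stop codon and after an AATAAA, had 13.4, 16.7 and 14.4 RPM, or 43.9% ± 0.848 of the reads.

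Within the near region the 2 weaker sites of Dnmt3a differed between libraries. The site at 458 bases had 5.23, 0.202 and 4.76 RPM, and the site at 807 bases had 1.80, 7.27 and 5.05 RPM. Replicate 2 was the low library at the first and the high one at the other. The far sites, at 5633 and 6694 bases, had 4.24, 4.98 and 3.27 RPM and 3.79, 3.37 and 4.62 RPM, so no library stood apart there.

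**Figure D5:**
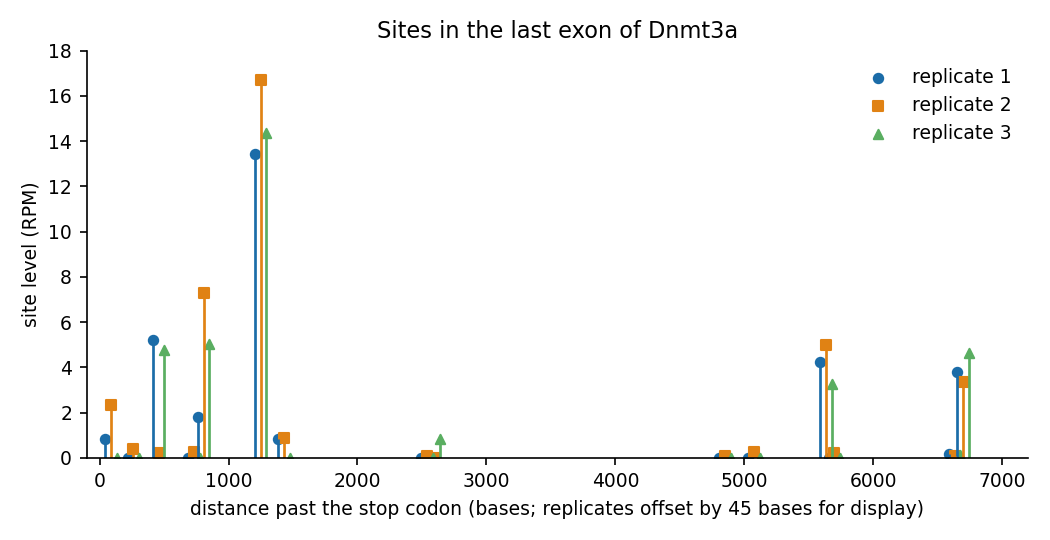
RPM at each listed site of Dnmt3a in its last exon against the distance past the stop codon in bases, by library. Sites group within 1500 bases of the stop codon and again beyond 5000 bases, and the tallest site, at 1249 bases, has 13.4 to 16.7 RPM.

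The use of tandem sites, the nearest and the farthest terminal exon site that held 5% or more of a gene's reads, was tested in all autosomal genes with at least 50 reads. By limma with Benjamini-Hochberg adjustment, 1457 of 4730 genes (30.8%) used the distal site at least 2-fold more and 629 (13.3%) the proximal one at adjusted p below 0.05. Without replicate 2 these counts were 734 and 371. Of the 9 members 4 had such a pair, and 2 of them, Uhrf1 and Tet2, were called, both distal. That is too few to set against the 30.8%. Over all genes tested, the log2 ratio of the distal to the proximal site had a median of 1.22. On the log2(RPM + 0.05) scale the 4 members had 3.11, 3.10, 1.09 and 0.62 for Tet2, Uhrf1, Dnmt3a and Tet1.

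In Uhrf1 the distal site had 553, 427 and 435 RPM and the proximal one 70.1, 47.9 and 48.5 RPM. The log2 ratio was 3.10 (SE 0.161, limma adjusted p = 1.9e-10), and distal was higher in 3 of 3 libraries. In Tet2 the distal site had 46.6, 42.4 and 49.98 RPM and the proximal one 4.42, 6.13 and 5.55 RPM. The log2 ratio was 3.11 (SE 0.354, limma adjusted p = 1.21e-06), again in 3 of 3 libraries. These fits let the variance follow the mean level, a step added after a trial on simulated data. Without it the limma adjusted p was 0.0412 for both Uhrf1 and Tet2. The proximal Tet2 site is the A-rich one, and with such sites left out Tet2 had no pair to test. Uhrf1 had none when the sites had to lie at least 100 bases apart.

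Dnmt3a and Tet1 did not pass the test. The distal share of the pair was 42.0%, 94.3% and 49.2% in Dnmt3a (log2 ratio 1.09, SE 1.15, limma adjusted p = 0.459). Replicate 2 alone had the distal site higher, and without it the log2 ratio was -0.25. Between its 2 most used sites, at 807 and 1249 bases, the distal one was called (log2 ratio 1.85, limma adjusted p = 0.0136), while under the other alternatives the adjusted p of Dnmt3a ran from 0.119 to 0.968. In Tet1 the distal share was 50%, 71.3% and 59.9% (log2 ratio 0.62, SE 0.946, limma adjusted p = 0.611). Its proximal site lies in coding sequence and is A-rich, with 14 A in the next 20 bases, and with such sites left out the ratio of its pair was 0.19.

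Partners and other genes of the pathway were read as well. Of 16 partners and regulators of maintenance and de novo methylation, 14 had at least 10 RPM, with a median of 66.4 RPM. The highest were Trim28 at 1476 ± 3.18 RPM, a corepressor that keeps methylation at imprinted and repeat sequences, Lig1 at 1062 ± 176 RPM, the replicative DNA ligase, and Hells at 321 ± 51.7 RPM, a chromatin remodeler needed for methylation of repeats. Of 4 genes of this list tested for tandem sites, 1 was called distal (Dppa2) and 2 proximal (Nsd1 and Pcna), beside 30.8% and 13.3% of all genes tested.

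Base excision repair, the step after TDG, was read at lower levels. Of 16 genes, 8 had at least 10 RPM and the median was 9.97 RPM. The uracil glycosylase gene Ung had 159 ± 24.0 RPM, Parp1, a sensor of DNA breaks, had 137 ± 10.7 RPM and the endonuclease gene Apex1 had 119 ± 6.10 RPM. Of the other glycosylase genes tied to demethylation, Neil1 had 9.39 ± 1.68 RPM, Neil2 had 10.5 ± 3.52 RPM, Neil3 had 2.97 ± 0.757 RPM, Mbd4 had 2.80 ± 0.0964 RPM and Smug1 had 18.5 ± 6.19 RPM. Of 6 genes tested, 1 was called distal (Lig3) and 0 proximal by limma, against the same 30.8% and 13.3%.

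Of 10 genes for readers of methylated or unmethylated CpG, 5 had at least 10 RPM, led by Mbd3 at 160 ± 11.6 RPM, a subunit of the NuRD complex. Cxxc5 followed at 75.4 ± 25.0 RPM and Cxxc1 at 53.6 ± 12.4 RPM. All 11 genes of the list for methyl donor and TET cofactor supply had at least 10 RPM, with a median of 93.6 RPM. The list also holds Ogt, the gene of a TET-binding O-GlcNAc transferase, which is X-linked and was measured in replicates 1 and 2. The highest of the list, not all of them genes of suppliers, were the mitochondrial enzyme genes Idh2 at 298 ± 39.4 RPM, Sdha at 207 ± 20.3 RPM and Fh1 at 171 ± 58.3 RPM. In tandem sites, 1 of 3 reader genes (Zbtb38) and 4 of 5 genes of the supply list (Ahcy, Idh1, Mtr and Sdha) were called distal and none proximal by limma, beside 30.8% and 13.3% of all genes tested.

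Members and other genic sites were seen in similar shares of the libraries. Of the 135 member sites, 30 (22.2%) had reads in every library and 81 (60.0%) in 1 library, beside 25.6% and 58.3% of 108626 autosomal sites in genes. Tet1 had 46 sites, Tet2 24, Dnmt3a 22, Uhrf1 13, Dnmt1 12, Dnmt3b and Tet3 7 each, Tdg 3 and Dnmt3l 1. The number of sites did not follow the level: Uhrf1, the most read member, had fewer listed sites than Tet1, Tet2 or Dnmt3a.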

How the data were processed

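The deposited site lists give a value per site and library in RPM (reads scaled to 1000000 reads of the library), made by the authors from mm10 alignments and the GENCODE M21 annotation, as the accompanying deposited text files state. Which aligner and site caller they ran is not given in the sources used here. RPM values were whole multiples of 1 read within 0.01 reads at 100% of values, which gave the read counts. Reads carry no stated molecular identifier, so limits cover counting error only.

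Sites were assigned to GENCODE M21 genes by strand, with terminal exons before other exons, introns and the 1000 bases downstream. Levels sum exonic and downstream sites. In GRCm38 the 40 bases upstream were searched on the transcribed strand for 18 hexamers, AATAAA or ATTAAA or TATAAA or AGTAAA or AATACA or CATAAA or AATATA or GATAAA or AATGAA or AATAAT or AAGAAA or ACTAAA or AATAGA or ATTACA or AACAAA or ATTATA or AACAAG or AATAAG, which may overlap. A site was A-rich with 12 A or a run of 6 A in the next 20 bases. Copies were searched with BLAST+ 2.17.0 (at least 100 aligned bases). Tandem ratios within each library, with the library as a block, were fitted over all genes with limma 3.58.1 (R 4.3.3), an intercept-only model whose variance follows the mean level. That trend was added after a trial on simulated data. The pseudocount of 0.05 RPM makes ratios of rarely used sites too small. edgeR 4.0.16 and DESeq2 1.42.0 on recovered reads were alternatives. All 9 members, and the 3 highest genes of each pathway list by mean RPM, were named; Neil1, Neil2, Neil3, Mbd4 and Smug1, and the genes called in lists, were named after their values were seen. Some items are not reported here. The members and lists were chosen with earlier results of these data known.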

Additional observations from a re-analysis of the deposited data

How the results depend on the processing

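The order of the members was the same under 6 of the 10 alternatives for levels. Tet1 moved below Dnmt3a with A-rich sites left out (32.2 RPM), and below Dnmt3b too with its most used site only (9.55 RPM), with terminal exon sites only (17.8 RPM) or with sites of 10 or more A left out (15.4 RPM), the last 2 chosen after seeing the data. In the main count and 9 of the 10 alternatives 6 members had 10 RPM or more, against 5 with the most used site only. Members with at least 5% of reads in introns and non-terminal exons numbered 1 in the main count and 1 to 2 when a library was left out; without replicate 1 the added gene was Tet2. The 1457 distal and 629 proximal calls became 758 and 308 without the variance trend, 756 and 417 with a site minimum of 10%, and 2987 distal with a minimum of 1%. Leaving out a library gave 734 to 1135 distal and 371 to 527 proximal calls. Of the members, 0 were called distal at 10% (in both the weaker site fell below it), and 1 with A-rich sites left out or with sites at least 100 bases apart. The log2 ratio of Dnmt3a was -0.059 at 10%, ran from -0.25 without replicate 2 to 1.86 without replicate 1, was 3.07 at a site minimum of 1%, and was 1.85 between the 2 most used sites, the only one of its alternatives that limma called; the cause was not tested. At 1% the ratio was 5.26 for Uhrf1 and 8.05 for Tet2, both still called. The proximal Tet2 site of that pair had 23, 0 and 0 reads, so its ratios in replicates 2 and 3 depend on the pseudocount. The proximal Dnmt3a site at 1% had 9, 35 and 0 reads, so its ratio in replicate 3 does too.

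Without the replicate block, which treats both sites of a library as separate samples, 1564 distal and 678 proximal genes were called, and the same members, Uhrf1 and Tet2, were called distal. By edgeR and DESeq2 both were called distal as well, as they were when each library was left out. Dnmt3l rested on 24, 76 and 77 reads, and Tdg had no read in replicates 1 and 3.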
